A study of Homo sapiens with 8 samples.

Results

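The class II and class IV histone deacetylases were followed in the RNA of cultured human cells with and without sodium benzoate (SB). The members were taken by gene symbol from the list of class IIa (HDAC4, HDAC5, HDAC7, HDAC9), class IIb (HDAC6, HDAC10) and class IV (HDAC11) enzymes, and all 7 have a value among the 14526 genes measured. The samples were 4 control replicates and 4 SB-treated replicates of cells labelled HepG2, an established line from a human liver carcinoma, grown in serum-containing DMEM. The SB-treated cells received 10 mM SB for 24 h before harvest, and the control replicates are described only as the group without this treatment. RNA-seq values are RPKM, the reads of a gene divided by its length and by the size of the library. The reads behind the values, recovered from the RPKM steps, numbered 36990091 to 44492817 per control library and 37161801 to 44878446 per SB-treated library. The series calls the samples biological replicates and does not say how the cultures were kept apart, so that p-values measure the spread between these samples.

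Lysine deacetylases remove acetyl and other acyl groups from histones and other proteins. Class IIa enzymes have weak deacetylase activity of their own and act largely as scaffolds: in the nucleus they bind MEF2 transcription factors and recruit HDAC3 with nuclear receptor co-repressors, and kinases such as CaMK and salt-inducible kinases send them to the cytoplasm bound to 14-3-3 proteins. Class IIb HDAC6 is a cytoplasmic enzyme that deacetylates alpha-tubulin and cortactin and binds ubiquitin, and HDAC10 deacetylates polyamines. HDAC11, the sole class IV enzyme, removes long fatty acyl groups from lysine. The comparison asks whether the transcripts of these enzymes differ between cells with and without the benzoate from which lysine benzoylation can be made.

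Control replicate 1 stood apart from the other control libraries. Its reads differed from those of control replicates 2, 3 and 4 with a chi-square per degree of freedom of 37.6, 33.4 and 38.4, against 1.69 to 3.47 among those 3 libraries and 1.52 to 3.80 among the SB-treated libraries. The difference followed base composition. The median of log2(RPKM + 1) in control replicate 1 less the mean of the other controls was 0.19 in the quartile of genes with the lowest GC content and -0.20 in the quartile with the highest. The changes of the deacetylase genes are also given without this library. For other genes this value is given where it made or ended a call, turned a sign or moved a called change by over 1.5 times.

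The labelled cell line was not matched by its markers. Of 21 hepatocyte marker genes 18 have no value in the table, among them ALB, APOA1, AFP, TTR and HNF4A. Those with a value were low in the controls, among them FOXA3 at 2.06 ± 0.193 RPKM (SD, n = 4) and TF at 0.192 ± 0.0188. The summed level of the 3 measured markers was 2.74, 2.66, 3.09 and 2.61 RPKM in control replicates 1 to 4 and 5.18, 5.26, 5.45 and 5.19 in the SB-treated replicates. FOXA3 and TF rose in SB, by 0.75 and 0.21 on the log2(RPKM + 1) scale (limma, adjusted p = 2.10e-06 and 0.00187). The cells are called by their treatment below.

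HDAC6 and HDAC5 had the highest levels per length, and HDAC9 the lowest. In the controls the order of mean RPKM was HDAC6 at 18.3 ± 1.24 (SD, n = 4), HDAC5 at 14.6 ± 1.59, HDAC7 at 6.64 ± 1.04, HDAC10 at 5.24 ± 0.949, HDAC11 at 4.73 ± 0.644, HDAC4 at 1.69 ± 0.135 and HDAC9 at 0.590 ± 0.0550. Neighbours in this order did not overlap between libraries, except HDAC7 with HDAC10 and HDAC10 with HDAC11, which overlapped through control replicate 1 and were apart without it. The order was the same in SB, where HDAC7 and HDAC10 overlapped and HDAC10 and HDAC11 did not. Against all genes, HDAC6 lay at percentile 70.7 of control levels, HDAC5 at 64.8, HDAC11 at 37.1, HDAC4 at 20.7 and HDAC9 at 9.07. Between 151 and 261 reads per library lay behind HDAC9, and between 2754 and 4267 behind HDAC6.

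**Figure D1:**
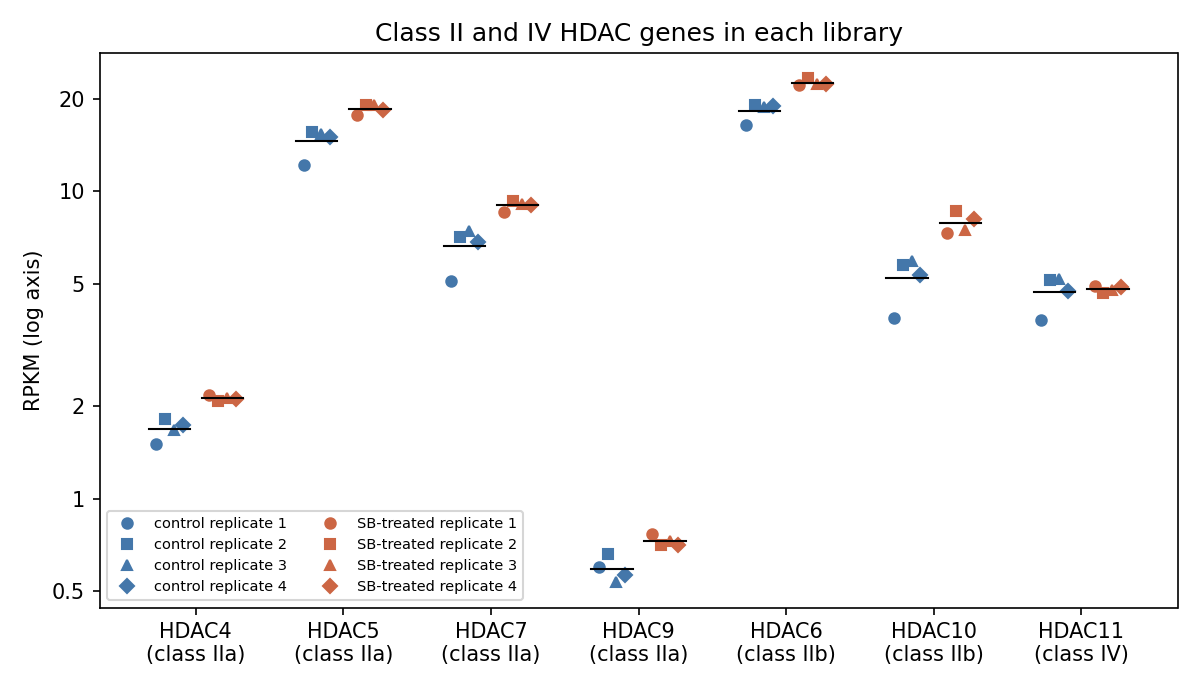
RPKM of the 7 genes in each library on a log axis, with blue for control and orange for SB-treated libraries, a marker shape for each replicate number and a black line at each group mean. In 6 genes the SB-treated libraries lie above all control libraries, in HDAC11 the groups overlap, and control replicate 1 is the lowest control for every gene but HDAC9.

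HDAC5 was the most abundant class IIa member and rose in SB. Its RPKM was 12.2, 15.6, 15.3 and 15.1 in control replicates 1 to 4 and 17.8, 19.1, 19.1 and 18.4 in the SB-treated replicates. Every SB-treated library lay above every control library, with control replicate 1 the lowest. The mean rose 1.28-fold, a log2 fold change of 0.34 on the log2(RPKM + 1) scale (SE 0.071, limma with adjustment over all genes, adjusted p = 0.00206), and the log2 value was 0.26 without control replicate 1. With the correction for GC content and gene length it was 0.16 (limma adjusted p = 0.000840). The gene lies on chromosome 17 from 44076753 to 44123641 (GRCh38.p14).

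HDAC7, the class IIa member best known from thymocytes and blood vessels, showed the largest class IIa change on this scale. It stood at 5.12, 7.13, 7.46 and 6.84 RPKM in the controls and at 8.60, 9.32, 9.13 and 9.02 in SB. The groups did not overlap, and control replicate 1 was again the lowest value. The mean rose 1.36-fold (log2 fold change 0.40, SE 0.090, limma adjusted p = 0.00308), and 1.26-fold without control replicate 1 (log2 0.30). The correction for GC content and length brought the log2 value to 0.25 (limma adjusted p = 0.000887). Its span on chromosome 12, from 47782722 to 47821344, overlaps SLC48A1, a heme transporter gene, which rose from 3.38 ± 0.550 to 5.20 ± 0.148 RPKM (log2 0.51, limma adjusted p = 0.000445). The overlap is short: SLC48A1 ends at 47782751, and the counted lengths are 4301 bases for HDAC7 and 3034 for SLC48A1. Whether the counting used strand is not given in the sources used here, so reads of overlapping genes could be shared between them. HDAC4 overlaps the antisense genes HDAC4-AS1 and HDAC4-AS2 and HDAC9 overlaps HDAC9-AS1, none of which has a value in the table.

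HDAC4, a regulator of muscle and bone growth, was at 1.51, 1.83, 1.67 and 1.74 RPKM in the controls and at 2.18, 2.09, 2.12 and 2.11 in SB. These groups were also apart, and the SB-treated values lay close together (SD 0.0390). The log2 fold change was 0.22 (SE 0.041, limma adjusted p = 0.00112), and 0.19 without control replicate 1. With the correction for GC content and gene length it was 0.037 and did not pass (limma adjusted p = 0.222). HDAC4 spans chromosome 2 from 239048168 to 239401649 and has the longest counted length of the 7 genes, 8976 bases.

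HDAC9, which in muscle is induced by MEF2 and represses it, was the scarcest member. Its RPKM was 0.600, 0.662, 0.535 and 0.563 in the controls and 0.770, 0.706, 0.726 and 0.710 in SB. The lowest SB-treated value, 0.706, stood just above the highest control value, 0.662. On the log2(RPKM + 1) scale, which understates changes of low genes, the fold change was 0.12 (SE 0.036, limma adjusted p = 0.0145), and with a pseudocount of 0.1 it was 0.27 (adjusted p = 0.00420). Without control replicate 1 it was 0.12. As for HDAC4, the correction for GC content and length ended the call (0.041, adjusted p = 0.352). Its gene runs over chromosome 7 from 18086825 to 19002416.

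Within class IIa the mix of transcripts was nearly the same in both groups. HDAC5 made up 62.1% ± 0.590 (SD, n = 4) of the summed class IIa RPKM in the controls and 61.0% ± 0.380 in SB, and HDAC7 28.2% ± 1.40 and 29.6% ± 0.274. The summed level was 19.4, 25.2, 25.0 and 24.2 RPKM in the controls and 29.3, 31.2, 31.1 and 30.2 in SB. HDAC3, the catalytic partner of these scaffolds, fell while the class IIa sum rose. The class IIa sum per HDAC3 was 0.357 ± 0.0376 in the controls and 0.599 ± 0.0165 in SB. These sums are a description of RNA levels and were given no test.

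HDAC6 was the most abundant of the 7 genes. Its RPKM was 16.5, 19.1, 18.8 and 19.0 in the controls and 22.3, 23.4, 22.3 and 22.4 in SB. No library of either group entered the range of the other. The mean rose 1.23-fold (log2 0.29, SE 0.049, limma adjusted p = 0.000622), and the log2 value was 0.24 without control replicate 1. HDAC6 lies on chromosome X from 48801398 to 48824982.

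HDAC10 showed the largest change of the 7 genes, on the scale used and as a ratio of means. It was at 3.86, 5.78, 5.95 and 5.35 RPKM in the controls and at 7.34, 8.62, 7.51 and 8.12 in SB. The SB-treated libraries were again all higher, and control replicate 1 lay well under the other controls. The mean rose 1.51-fold (log2 0.52, SE 0.10, limma adjusted p = 0.00162), and 1.39-fold without control replicate 1 (log2 0.41). Among all genes this change was at percentile 95.7. HDAC10 took 22.1% ± 2.22 of the class IIb sum in the controls and 25.9% ± 1.07 in SB. It is a short gene, on chromosome 22 from 50245183 to 50251265.

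HDAC11 did not pass the test. It was at 3.81, 5.16, 5.20 and 4.74 RPKM in the controls and at 4.94, 4.66, 4.77 and 4.88 in SB. All 4 SB-treated values fell inside the control range, whose lowest value was control replicate 1. The log2 fold change was 0.029 (95% interval -0.14 to 0.20, limma adjusted p = 0.753). Without control replicate 1 the sign turned, to -0.053 (adjusted p = 0.185). The gene lies on chromosome 3 from 13480306 to 13506416.

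The promoters of HDAC10 and HDAC11 are shown because the genes had like levels in the controls and different changes in SB. The set of promoter windows used here covered 16 start sites of 6 of the 7 members and had no entry for HDAC5. Sequences are from RefSeq (GRCh38.p14). They are the 250 bases before the start site, 5′ to 3′ on the strand of the gene, with matches to the GC box GGGCGG on either strand in capitals. HDAC10 is from chr22:50251266-50251515, minus strand, and HDAC11 from chr3:13480056-13480305, plus strand.
HDAC10: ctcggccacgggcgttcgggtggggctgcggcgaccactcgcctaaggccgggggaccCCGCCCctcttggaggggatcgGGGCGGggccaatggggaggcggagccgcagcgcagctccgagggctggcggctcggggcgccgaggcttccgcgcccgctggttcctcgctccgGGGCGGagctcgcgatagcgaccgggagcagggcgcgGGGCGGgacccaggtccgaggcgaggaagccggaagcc
HDAC11: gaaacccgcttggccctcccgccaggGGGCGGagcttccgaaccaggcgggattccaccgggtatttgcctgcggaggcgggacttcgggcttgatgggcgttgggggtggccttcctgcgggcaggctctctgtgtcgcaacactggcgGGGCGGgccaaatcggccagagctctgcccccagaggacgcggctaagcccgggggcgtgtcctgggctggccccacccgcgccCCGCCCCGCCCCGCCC
The HDAC10 window holds 4 GC boxes and the HDAC11 window 5, against a mean of 0.97 over the 35116 promoter windows. At least 1 GC box was in 7 of the 16 member windows and in 42.6% of all windows. A CCAAT box (CCAAT, either strand) occurs in the HDAC10 window, as in 32.0% of windows, and not in that of HDAC11. For the MEF2 site only the form CTA and TAG with any 4 bases between was searched, on both strands. This form was in 0 of the 16 member windows and in 2.36% of all windows. The E-box CACGTG, likewise searched, was in neither of the printed windows and in 6.34% of all. A window of HDAC4 held 1 match. Such matches describe the letters of these windows only.

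By count, 6 of the 7 genes were higher in SB and 0 were lower (limma, adjusted p under 0.05), against 33.0% of all genes higher and 32.6% lower. The same 6 genes had all SB-treated values above all control values, as had 31.0% of all genes, and 30.5% of all genes had them all below. The median log2 fold change was 0.29 over the 7 genes and 0.0045 over all 14526. Leaving out the TMM scaling factors of the authors moved the median log2 ratio of all genes from 0.0077 to 0.11 and the split of calls from 4787 higher and 4740 lower to 6253 and 3357. The count of members was 6 higher and 0 lower there too, with HDAC11 at 0.12 (adjusted p = 0.206). With the correction for GC content and gene length 4 of the 7 were called higher, HDAC5 (0.16), HDAC6 (0.19), HDAC7 (0.25) and HDAC10 (0.43), with 4763 higher and 5319 lower over all genes.

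Gene length and base composition moved with the change across all genes. The median log2 fold change rose over the quartiles of counted length, from -0.14 in the shortest genes through -0.026 and 0.040 to 0.10 in the longest. Over the quartiles of GC content it was -0.046, -0.025, 0.014 and 0.067, and without control replicate 1 it was -0.0019, -0.012, -0.0025 and 0.022. HDAC5, HDAC6, HDAC7, HDAC10 and HDAC11 lie in the quartile of highest GC content. Among the 6 members that rose, the order of the fold changes on the log2(RPKM + 1) scale was that of GC content: HDAC9 at 40.2% GC, HDAC4 at 53.1%, HDAC6 at 57.6%, HDAC5 at 61.2%, HDAC7 at 62.7% and HDAC10 at 66.3%. HDAC11, at 60.2%, was outside this order. The order belongs to this scale: with a pseudocount of 0.1 HDAC4 (0.32) stood above HDAC6 (0.30), as it did with voom (0.34 and 0.30) and as a ratio of means (1.26 and 1.23). The part of length and base composition in these changes was measured only through the correction given above.

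**Figure D2:**
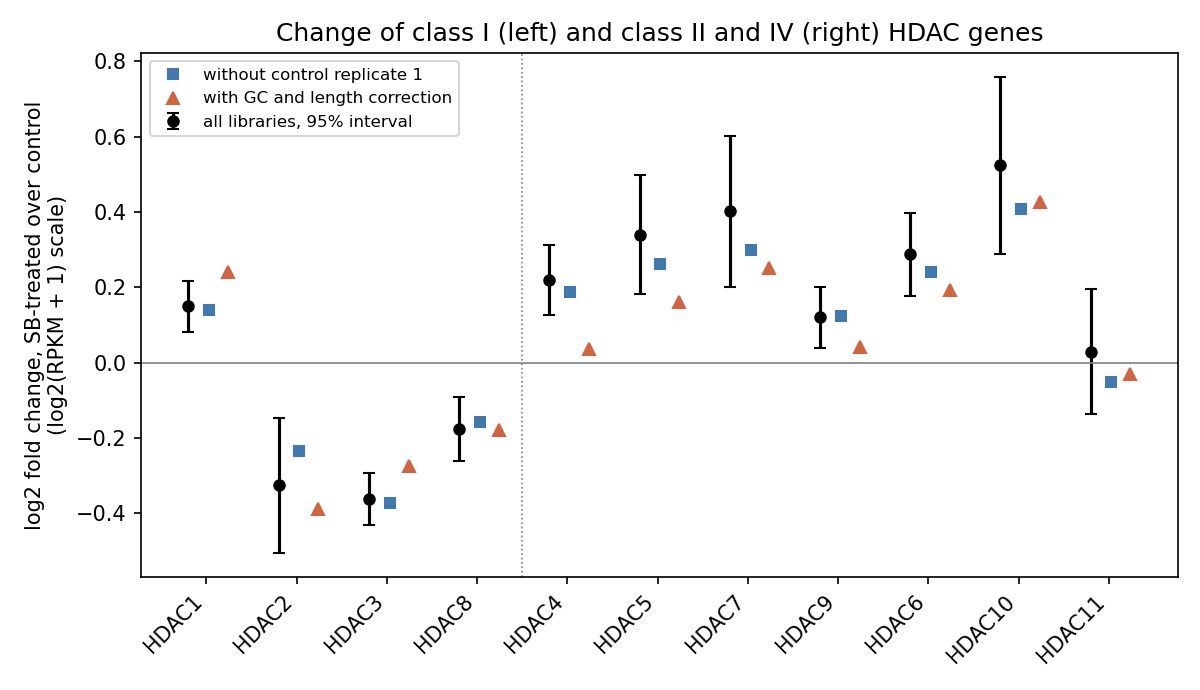
log2 fold change (SB-treated over control, log2(RPKM + 1) scale) of the 4 class I genes and the 7 class II and IV genes, with black points and 95% limma intervals from all libraries, blue squares without control replicate 1 and orange triangles with the correction for GC content and gene length. HDAC4 falls from 0.22 to 0.037 and HDAC9 from 0.12 to 0.041 with the correction, while HDAC10 is at 0.43.

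**Figure D3:**
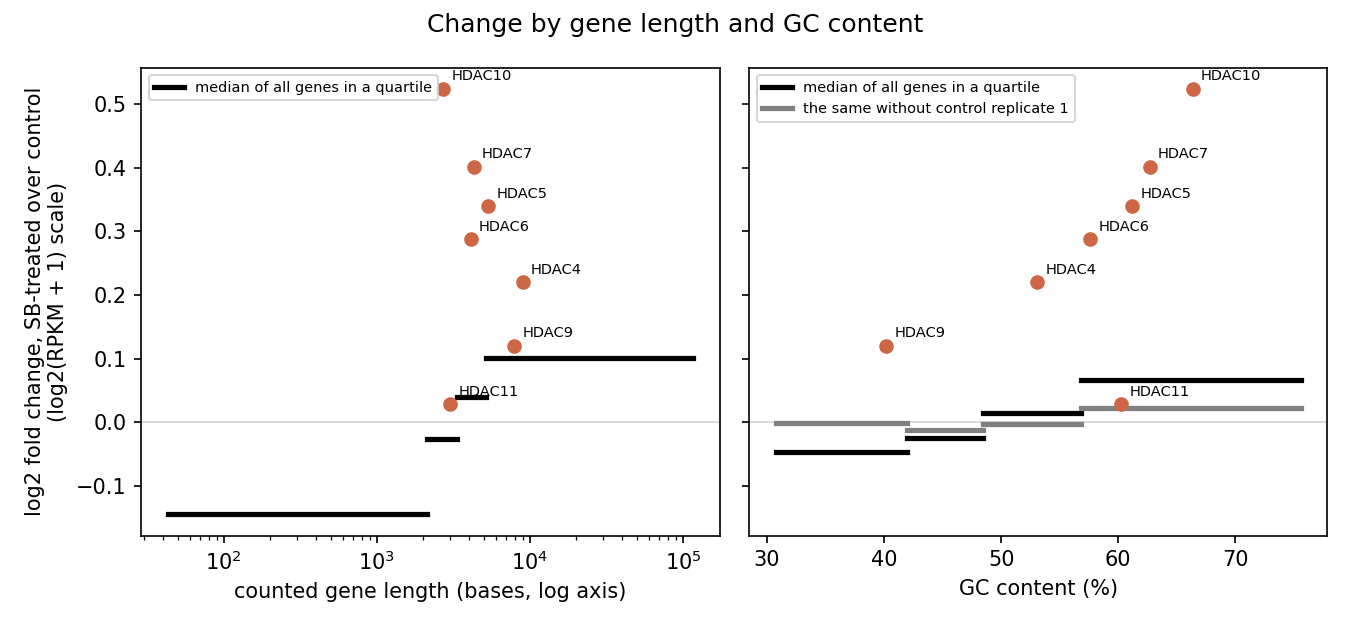
log2 fold change of the 7 genes (orange points) against counted gene length on a log axis (left) and GC content (right). Black lines give the median of all genes in each quartile of genes. Grey lines, drawn for GC content only, give the same without control replicate 1. The 6 members that rose lie above the median of their quartile, and HDAC11 lies under it for GC content.

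Ratios of members within libraries are free of library size. The log2 ratio of HDAC10 to HDAC11 RPKM was 0.14 ± 0.080 (SD, n = 4) in the controls and 0.71 ± 0.13 in SB, a difference of 0.57, and 0.53 without control replicate 1 (exact permutation test, two-sided, p = 0.0286, the smallest that 4 against 4 allows). Of the 21 pairs of members compared this way, 8 reached that p, 5 of them pairs with HDAC11 and the others HDAC10 with HDAC5, HDAC6 and HDAC7. With 8 pairs at the smallest p that the design allows, Benjamini-Hochberg adjustment over the 21 pairs can give no less than the 0.0750 found (exact permutation test), and so decides nothing about any pair. The ratio of HDAC4 to HDAC5, for comparison, was -3.11 ± 0.073 and -3.13 ± 0.074.

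The genes whose values over the 8 libraries were most like those of each changed member were found among genes within 2-fold of its mean level, by the root mean square difference of log2(RPKM + 1) less the control mean. For HDAC4 they were CDHR1 (difference 0.0153) and LINC01447 (0.0206). For HDAC5 they were FOXP4 (0.0207) and MGAT1 (0.0215), and for HDAC6 SLC35E1 (0.0201) and DHX34 (0.0245). TBCD (0.0269) and GNAO1 (0.0308) were nearest to HDAC7, and TRHDE (0.0149) and PTPRD (0.0304) to HDAC9. HDAC10 had the least close neighbours, WDR90 (0.0388) and ZMIZ2 (0.0480), out of 4679 candidates. WDR90 was at 5.44 ± 0.924 RPKM in the controls and 7.92 ± 0.410 in SB, close to HDAC10 in both. With the correction for GC content and length the log2 fold change went from 0.48 to 0.26 for WDR90 and from 0.50 to 0.32 for ZMIZ2, with HDAC10 at 0.43. It went from 0.32 to 0.10 for FOXP4, 0.28 to 0.18 for SLC35E1, 0.27 to 0.13 for DHX34, 0.38 to 0.23 for TBCD and 0.42 to 0.24 for GNAO1. These 7 genes still passed (limma adjusted p under 0.05). CDHR1, TRHDE and PTPRD did not pass with this correction, as HDAC4 and HDAC9 did not, while LINC01447 did (0.29, limma adjusted p = 0.000105).

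The nearest genes with a value on either side of the members moved in both directions. Genes without a value can lie between. G6PC3, a glucose-6-phosphatase gene 409 bases from HDAC5, fell from 27.7 ± 3.05 to 18.5 ± 0.849 RPKM (log2 -0.55, limma adjusted p = 0.000138), while ASB16 on the other side rose (0.42, adjusted p = 0.000206). TUBGCP6, 160 bases from HDAC10, rose by 0.27 (limma adjusted p = 0.00783) and did not pass with the correction for GC content and length (0.071, adjusted p = 0.0807). MAPK12, a p38 kinase gene on the other side of HDAC10, fell from 44.6 ± 5.04 to 35.6 ± 0.601 RPKM (log2 -0.31, limma adjusted p = 0.00417). Beside HDAC11, the nuclear pore gene NUP210 rose by 0.50 (limma adjusted p = 0.000768), or 0.30 with the correction, and FBLN2 was at -0.0030 (adjusted p = 0.976) and at -0.16 with the correction (adjusted p = 0.0112).

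Around the other members the pattern was as mixed. RAPGEF3, beside HDAC7, rose from 0.654 ± 0.0868 to 1.47 ± 0.0764 RPKM (log2 0.58, limma adjusted p = 4.62e-06, and 0.38 with the correction for GC content and length), and the vitamin D receptor gene VDR on the other side was at 0.010 (adjusted p = 0.855), at -0.028 without control replicate 1 and at -0.11 with the correction (adjusted p = 0.00784). On either side of HDAC4, TWIST2 fell by 0.32 and NDUFA10 by 0.35 on the log2 scale (limma adjusted p = 0.00641 and 1.45e-05). These 2 genes lie far from HDAC4, at 137634 and 490793 bases. SNX13 beside HDAC9 rose by 0.28 (limma adjusted p = 0.00911) and TWIST1 was at 0.012 (adjusted p = 0.872). With the correction without control replicate 1, chosen after seeing the data, TWIST1 was at 0.18 (limma adjusted p = 0.00304) and TWIST2 at -0.16 (adjusted p = 0.0512). SUV39H1, a histone methyltransferase gene near HDAC6, was at 0.039 (limma adjusted p = 0.586) and at -0.024 without control replicate 1. PCSK1N, on its other side, was at -0.39 (adjusted p = 0.0389), a call that ended when any of control replicates 1, 2 and 3 or SB-treated replicates 1, 2 and 4 was left out (adjusted p from 0.0681 to 0.104 by limma), and without the TMM factors (adjusted p = 0.0997).

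Class I deacetylases went mostly the other way. HDAC3 fell from 65.7 ± 0.993 to 50.9 ± 0.755 RPKM (log2 -0.36, limma adjusted p = 8.04e-06). HDAC2 fell from 52.0 ± 7.28 to 41.0 ± 0.746 (log2 -0.33, adjusted p = 0.00532) and HDAC8 from 15.6 ± 0.608 to 13.7 ± 0.349 (log2 -0.18, adjusted p = 0.00250 by limma). Without control replicate 1 the log2 values were -0.37, -0.23 and -0.16. The HDAC8 call ended without the TMM factors (-0.078, adjusted p = 0.0840). HDAC1 rose, from between 115 and 118 RPKM in the controls to between 129 and 132 in SB (log2 0.15, limma adjusted p = 0.00181), with 0.14 without control replicate 1 and 0.24 with the correction for GC content and length. The difference between the classes was not tested. As a share of the summed RPKM of all 11 genes, class II and IV made up 17.1% ± 1.80 in the controls and 21.8% ± 0.469 in SB.

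The counts of the lists that follow stand beside 33.0% of all genes higher and 32.6% lower. Of 11 class IIa co-repressor genes 3 were higher and 6 lower, with a median log2 fold change of -0.16 against 0.0045 over all genes. BCOR, a co-repressor of BCL6, fell from 56.8 ± 2.41 to 31.3 ± 0.266 (log2 -0.84, limma adjusted p = 2.92e-07), and HDAC3 was the most abundant gene of the list.

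MEF2 factors, the DNA-binding partners of class IIa enzymes, had values for 3 of 4 genes, of which 1 was higher. MEF2A rose from 21.2 ± 1.96 to 27.6 ± 0.492 RPKM (log2 0.37, limma adjusted p = 0.000321). MEF2D was at 0.064 (limma adjusted p = 0.251), at 0.16 without the TMM factors (adjusted p = 0.0171) and at -0.10 with the correction for GC content and length (adjusted p = 0.00783). MEF2C was at 0.039 (limma adjusted p = 0.416), with a call without control replicate 1 (0.072, adjusted p = 0.0238) and without the TMM factors (0.12, adjusted p = 0.0165) and a turned sign with that correction (-0.024). Of 8 measured genes described as MEF2 targets, 1 was higher, 2 were lower and 5 did not pass, with a median of 0.021. JUN rose from 206 ± 15.1 to 280 ± 12.2 RPKM (log2 0.44, limma adjusted p = 9.57e-05), and SLC2A4, the insulin-responsive glucose transporter gene, fell by 0.24 (adjusted p = 0.00774).

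Kinases, 14-3-3 proteins and exportin move class IIa enzymes out of the nucleus. Of 17 measured kinases 8 were higher, 4 lower and 5 did not pass, with a median of 0.081. CAMK2B, a calmodulin-dependent kinase, rose from 0.589 ± 0.114 to 1.20 ± 0.0562 RPKM (log2 0.47, limma adjusted p = 3.58e-05). MARK3, the most abundant, fell by 0.18 (limma adjusted p = 0.00480), a call that ended without the TMM factors (adjusted p = 0.116). PRKD2 was at -0.22 (limma adjusted p = 0.0389), and lost its call when any library but control replicate 1 was left out (adjusted p from 0.0501 to 0.105) and without the TMM factors (adjusted p = 0.210). It was at -0.31 without control replicate 1 (limma adjusted p = 8.66e-05) and at -0.34 with the correction for GC content and length (adjusted p = 7.79e-05). Of the 6 measured genes for 14-3-3 proteins, which hold phosphorylated class IIa enzymes in the cytoplasm, 5 were lower and 0 higher, with a median of -0.40. YWHAZ fell from 284 ± 19.9 to 209 ± 4.34 RPKM and YWHAB from 133 ± 3.96 to 93.1 ± 0.653 (log2 -0.44 and -0.51, limma adjusted p = 4.58e-05 and 1.75e-06). Of 5 export and phosphatase genes 2 were lower, with PPP1CB at -0.48 (limma adjusted p = 6.00e-05). The exportin gene XPO1 was at -0.096 (limma adjusted p = 0.202) and passed with the correction for GC content and length (-0.098, adjusted p = 0.0141).

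For HDAC6, 17 substrate and partner genes were measured, of which 3 were higher, 6 lower and 8 did not pass (33.0% and 32.6% of all genes were higher and lower), with a median of 0.014. HSP90AA1, a chaperone gene and the most abundant by the mean of all 8 libraries, was at 613 ± 58.7 RPKM in the controls and 576 ± 14.1 in SB (log2 -0.087, limma adjusted p = 0.238). HSP90AB1, named after its values were seen, was the more abundant in the controls and fell from a mean of 643 to 476 RPKM (log2 -0.43, limma adjusted p = 4.81e-06). SQSTM1, an autophagy receptor gene, rose by 0.23 (limma adjusted p = 0.00124), and PRDX2, a peroxiredoxin gene, fell from 278 ± 35.2 to 184 ± 2.48 RPKM (log2 -0.59, adjusted p = 0.000187).

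Polyamine genes, which make, break down or carry the substrates of HDAC10, counted 2 higher, 6 lower and 5 that did not pass, with a median of -0.097. SAT1, which acetylates spermidine and spermine, fell from 34.6 ± 2.57 to 19.2 ± 0.516 RPKM (log2 -0.81, limma adjusted p = 1.61e-06). ATP13A3, a polyamine transporter gene, rose from 18.3 ± 0.631 to 24.8 ± 0.776 (log2 0.42, limma adjusted p = 1.15e-05). OAZ1, the antizyme gene and the most abundant, was at -0.064 (limma adjusted p = 0.334), at -0.12 without control replicate 1 (adjusted p = 0.00706) and at 0.088 with the correction for GC content and length (adjusted p = 0.0527).

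Of 4 genes for reported HDAC11 substrates 2 were higher and 1 lower, with a median of 0.048. SHMT2, the mitochondrial serine hydroxymethyltransferase gene, fell from 205 ± 16.5 to 131 ± 1.43 RPKM (log2 -0.64, limma adjusted p = 9.12e-06). IFNAR1, an interferon receptor gene, rose by 0.28 (limma adjusted p = 0.00106). CDT1, a replication licensing gene, was at 0.28 (limma adjusted p = 0.0330), at 0.17 without control replicate 1, and lost its call when control replicate 4 or SB-treated replicate 2, 3 or 4 was left out (adjusted p from 0.0553 to 0.0858). BUB1B, a spindle checkpoint gene, was at -0.18 (limma adjusted p = 0.0609) and passed without control replicate 1 (-0.094, adjusted p = 0.0120), without control replicate 2 (-0.22, adjusted p = 0.0416), with voom (-0.19, adjusted p = 0.0473) and with the correction for GC content and length (-0.15, adjusted p = 0.0209).

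**Figure D4:**
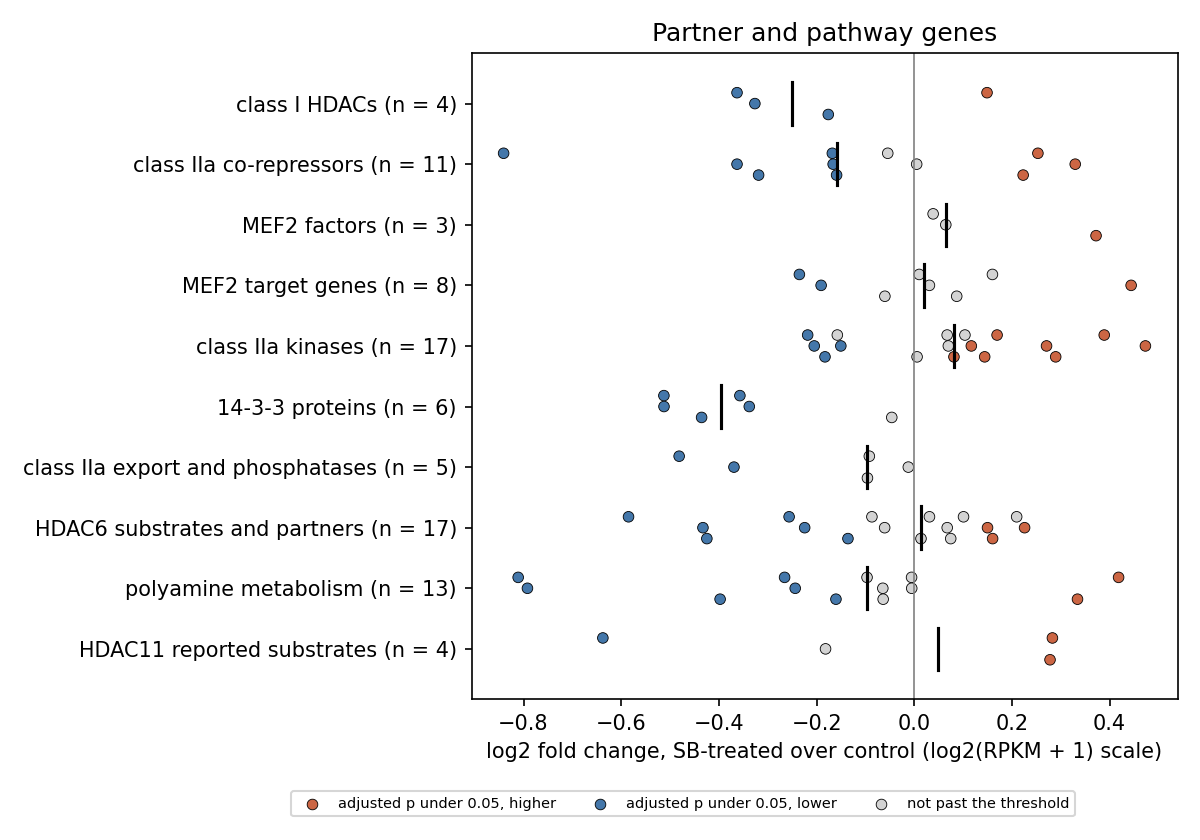
log2 fold change (SB-treated over control, log2(RPKM + 1) scale) of each measured gene of 10 lists, with orange for higher and blue for lower at a limma adjusted p under 0.05, grey for genes that did not pass, and a black line at the median of each list. Of the 6 genes for 14-3-3 proteins 5 are blue, and the kinases spread to both sides.

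Markers of other cell types were also read, since in bulk RNA fewer cells of a type and less RNA per cell cannot be told apart. Of 7 fibroblast markers 3 have a value, led by COL1A1 at 4.86 ± 0.924 RPKM in the controls and 4.10 ± 0.0314 in SB (log2 -0.19, limma adjusted p = 0.133, -0.31 with adjusted p = 2.38e-06 without control replicate 1, and -0.39 with adjusted p = 0.000187 with the correction for GC content and length). Their sum was 6.13, 8.25, 8.11 and 8.32 RPKM in control replicates 1 to 4 and from 6.07 to 6.29 in SB, and LUM rose while COL3A1 fell (log2 0.26 and -0.48, limma adjusted p = 0.00803 and 3.35e-05), with LUM at 0.41 with the correction. Of 7 blood cell markers 2 have a value, with a sum from 2.39 to 2.83 RPKM in the controls and from 2.53 to 3.17 in SB, while PTPRC, CD3E and HBB have none. CD68 rose by 0.23 (limma adjusted p = 0.0173).

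The neuronal markers NEFL, NEFM, INA and SNCG, in contrast, were plainly present. NEFL, the most abundant, was at 42.2 ± 1.90 RPKM in the controls and 27.1 ± 0.680 in SB (log2 -0.62, limma adjusted p = 1.75e-06). The 4 measured genes summed to 104, 95.4, 101 and 95.1 RPKM in the controls and to between 55.9 and 58.0 in SB. NEFM and SNCG fell as well (log2 -1.06 and -1.75, limma adjusted p = 3.85e-07 and 6.15e-08) and INA rose (0.69, adjusted p = 8.13e-06), and NEFH has no value. The part of these cell type markers in the changes of the deacetylase genes was not tested.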

How the data were processed

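RNA was sequenced from 4 control and 4 SB-treated replicates. The authors mapped single-end reads to hg38 with TopHat 2.1.0, counted them per gene with featureCounts 1.5.0 (strand setting not given in the sources used here), kept genes above a CPM threshold, scaled libraries by TMM in edgeR 3.16.5 and deposited RPKM values for 14526 genes. Columns of a fold change, mean level, p-value and FDR from the authors' own comparison were not used.

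The 2 groups were compared on the log2 scale, after adding 1 to each RPKM, with limma 3.58.1 (R 4.3.3), and p-values were adjusted by Benjamini-Hochberg across the whole table. Pairs of genes were compared with exact permutation tests (SciPy 1.17.1, Python 3.11.15). Whole reads were recovered from the RPKM steps for 100% of genes, within a tolerance of 0.02 reads. Limma, voom and the recovery were tested on simulated data. GC content came from GENCODE transcripts for 97.1% of genes, and coordinates and promoters from RefSeq.

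Alternatives were a pseudocount of 0.1, no TMM factors, median-of-ratios scaling, an RPKM of at least 0.5 in at least 4 samples, the replicate number as a block, leaving out each sample, voom, an intensity trend and a correction for GC content and length by splines. Voom and that correction without control replicate 1 were chosen after seeing the data. The genes named are the members, the largest rise, the largest fall and the most abundant gene of each list, every gene of the class I, MEF2 factor, HDAC11 substrate and marker lists, the 2 genes most like each changed member, and chromosomal neighbours. HSP90AB1 was added after its values were seen. Some genes that this rule takes are not reported here. The members and lists were chosen with earlier results of these data known.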

Additional observations from a re-analysis of the deposited data

Results flagged for a closer look

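In some groups of 4 libraries the highest or lowest library was far from the others, by the gap to its nearest neighbour as a share of the range of the group on the log2(RPKM + 1) scale. Of the 148 groups of the 74 genes that the rule takes, 21 were marked, and in 18 of them the library was control replicate 1. Chance alone marks about 1 in 20 groups. The count cannot be set against that share, since the genes share libraries and some were taken for being like the members across these same libraries. Among the deacetylase genes it was the lowest control for HDAC5 (0.85 of the range) and HDAC6 (0.898), and SB-treated replicate 2 was the highest of its group for HDAC6 (0.913).

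The other genes in which control replicate 1 stood apart were MEF2A (0.95), MEF2C (0.882), XPO1 (0.842), SQSTM1 (0.95), PRDX2 (0.921), BUB1B (0.879), COL1A1 (0.935), INA (0.882), FOXP4 (0.839), DHX34 (0.95), TBCD (0.843), GNAO1 (0.847), ZMIZ2 (0.903), G6PC3 (0.848), SUV39H1 (0.836) and TUBGCP6 (0.908). SB-treated replicate 1 stood apart for JUN (0.873) and SB-treated replicate 3 for ASB16 (0.849).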

How the results depend on the processing

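HDAC5, HDAC6, HDAC7 and HDAC10 were called higher under all 20 alternatives. HDAC4 and HDAC9 were called higher under 17 of 20. With the correction for GC content and length they were at 0.037 and 0.041 on the log2 scale (limma adjusted p = 0.222 and 0.352), with the same correction and the replicate block at 0.037 and 0.041 (0.315 and 0.348), and with the correction without control replicate 1, chosen after seeing the data, at 0.034 and 0.010 (0.221 and 0.758). HDAC11 was not called under any alternative, and its sign turned without control replicate 1 (-0.053), with the correction (-0.031, with the block -0.031), with the correction without control 1 (-0.067) and with voom without control 1 (-0.061, chosen after seeing the data). The cause was not tested.

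Leaving out each sample gave log2 fold changes from 0.19 to 0.25 for HDAC4, 0.26 to 0.37 for HDAC5, 0.24 to 0.31 for HDAC6, 0.30 to 0.45 for HDAC7, 0.10 to 0.14 for HDAC9, 0.41 to 0.58 for HDAC10 and -0.053 to 0.069 for HDAC11. Counts of members were 6 higher and 0 lower each time. Over all genes 4311 to 5459 were higher and 4285 to 5511 lower.

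The replicate numbers were not taken as pairs, since 1 of the 4 correlations was not above 0.1. Deviations of same-numbered replicates correlated across genes at 0.380, 0.327, 0.173 and -0.160, with a mean of 0.18 against -0.0541 for other pairs, and of 0.039 after the correction. Of the 8 samples 4 correlated best with their own number. With the replicate block 4885 genes were higher and 4894 lower, with 6 members higher. PRKD2 kept its call (-0.22, limma adjusted p = 0.00964) and BUB1B gained one (-0.18, adjusted p = 0.0321, and 0.0156 with voom and the block).

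For the 67 other genes that the rule takes, 1238 of 1338 values kept their direction and side of the threshold. Signs turned with the correction for GC content and length for MEF2C (-0.024), MEF2D (-0.10), OAZ1 (0.088), SUV39H1 (-0.0021) and VDR (-0.11), with the same values under the block, and with the correction without control 1 for MEF2C (-0.037), MEF2D (-0.098), OAZ1 (0.059), SUV39H1 (-0.027), VDR (-0.12) and PTPRD (-0.019). Without the TMM factors XPO1 (0.0086), HSP90AA1 (0.018), OAZ1 (0.041) and FBLN2 (0.063) turned, with voom without control 1 SUV39H1 (-0.027) and VDR (-0.037), and with voom FBLN2 (0.0030), which was 0.0013 with a pseudocount of 0.1. With single samples left out, signs turned for FBLN2 (lowest -0.079, highest 0.055), SUV39H1 (lowest -0.024, highest 0.066), TWIST1 (lowest -0.036, highest 0.061) and VDR (lowest -0.028, highest 0.037).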
